A study of Homo sapiens with 15 samples.

Results

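Introns of long noncoding RNA (lncRNA) genes were taken from tables of intron retention by gene name. A gene counted if its single name began with LINC and a digit or ended in -AS1 (antisense), -AS2, -DT (divergent transcript) or -IT1 (intronic transcript). The rule found 570 introns of 206 genes among 111143 introns of 11195 genes listed in any of 4 tables, and 341 introns of 135 genes among the 83066 introns listed in all 4. By name, 409 introns belonged to 149 -AS1 genes, 130 to 43 LINC genes, 20 to 9 -DT genes, 10 to 4 -AS2 genes and 1 to an -IT1 gene. The annotation, GENCODE v29, gave 118 of these genes the type antisense, 46 lincRNA and 33 processed transcript, so the label fits most of them. Exceptions were 1 protein-coding gene and 4 transcribed pseudogenes.

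The RNA was polyA-selected and came from HCT116, a human colon cancer cell line. Libraries were made from wild-type cells (WT) and from 4 clones, KO-1 to KO-4, which carry the genotype label bktRNA1-/-. Each group had 3 libraries, from 3 independent experiments per the labels, and no agent or time point is given. Each KO group is 1 clone, so the loss of bktRNA1 and the history of that clone cannot be told apart within a single comparison. No value for bktRNA1 itself was used, and the genotypes are as labelled.

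Between 17287797 and 35348260 junction reads per library fell on introns listed in all 4 tables, and lncRNA gene introns took between 0.147% and 0.172% of them. Retained reads, which cross an exon-intron boundary, made up 80.5% to 84.1% of the reads on these introns and 12.3% to 13.7% of the reads on all introns. Of 10 colon epithelium markers, 6 were listed. Of these, 5 were tested by spliced reads (defined below), with 1 higher and 1 lower in KO-1, KO-2 and KO-4 each, and 3 higher and 0 lower in KO-3. EPCAM stood at 9013 scaled spliced reads in WT and 4329 in KO-1, and KRT8 at 64141 in WT and 92577 in KO-3. Blood and endothelial markers (5 and 3 genes) were not listed, and 1 of 5 fibroblast markers was, COL1A1, at 159 scaled spliced reads in WT and 248 in KO-4. Their part in the results below was not tested. In bulk RNA, fewer cells with a transcript and less of it per cell cannot be told apart.

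Long noncoding RNAs are transcribed by RNA polymerase II, and most are capped, spliced and polyadenylated like messenger RNA. They are usually less abundant than messenger RNA, are often spliced less completely, and many stay in the nucleus. An antisense RNA is read from the strand opposite to another gene, so its introns can lie over that gene's exons. A divergent transcript starts beside a promoter and runs away from it. Reads over an intron of such a gene may therefore come from the gene on the other strand if counting ignored strand. The library kit was directional, and whether the counting used strand is not given in the sources used here.

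Splice sites are shown first, because they show what the introns under discussion are made of. The last 10 bases of the exon and the first 20 of the intron form the 5′ site, and the last 20 of the intron and the first 10 of the next exon the 3′ site. Capitals mark the intron. The sequences were read on the gene's strand from GENCODE v29 transcripts (hg38) whose exons cover the site. Both sites were read for 197 of the 570 introns, of which 193 had GT-AG ends, 3 had GC-AG ends and 1 had AT-AC ends. The first set are introns on which the comparisons of retention and spliced reads turn, and the second set the 4 introns with other ends.
LINC01089 5′ site, intron 6 of 6, chr12:121795727-121796190, minus strand: cctctagcagGTAAGGGAGCTACCTCCTGG
LINC01089 3′ site: CCTCTTCTTCCACCTCTTAGagtgccttgg
VPS9D1-AS1 3′ site, intron 1 of 3, chr16:89712223-89712688, plus strand: TTCAGCTTCTGATTCTGCAGggaggcctcc
PTOV1-AS2 5′ site, intron 2 of 4, chr19:49858627-49858842, minus strand: cagaaccaggGTCAGTGCCCCATCCAGTGC
PTOV1-AS2 3′ site: TTGTCCATGATCCGGCACAGgctcttcagt
PXN-AS1 5′ site, intron 3 of 3, chr12:120209935-120212374, plus strand: atcctcaactGTAAGTAACTGCCTTCGGCA
PXN-AS1 3′ site: TGTCGTTCTGCTCCTTGAAGgtgcccttgt
SLC9A3-AS1 5′ site, intron 2 of 3, chr5:477850-479865, plus strand: actgaatcagGTAGAGAACGGAGCAGAGCC
SLC9A3-AS1 3′ site: TAGCTGATGGCATCCTTCAGgttcagctcg
NOP14-AS1 5′ site, intron 1 of 4, chr4:2935736-2937751, plus strand: ccaattgtggGTAAGAACAAAGCCCCACCT
NOP14-AS1 3′ site: GACCTGAAACTGCATCCCAGgtcggcacag
EPB41L4A-AS1 5′ site, intron 2 of 2, chr5:112161776-112162150, plus strand: tgacctgaagGTAGGGTGATATGTCTTAAA
EPB41L4A-AS1 3′ site: TACTTTATTTTTTCTCTTAGgatgtccttg
GABPB1-AS1 5′ site, intron 2 of 2, chr15:50356258-50370329, plus strand: gcagcttcagATAAGTAATCTTTCTCCACT
GABPB1-AS1 3′ site: TTTTATTTTTGTCTGGATACagtggctcac
ARRDC1-AS1 5′ site, intron 1 of 2, chr9:137618192-137618530, minus strand: tctggttcagGCAGGTTCCCGTTGCGGCGG
ARRDC1-AS1 3′ site: GCTCTCGCTGCCACTCATAGgcccgctgcc
LINC00342 5′ site, intron 1 of 4, chr2:95814146-95814670, minus strand: gccaaggcagGCATGTGTGATAACATATAG
LINC00342 3′ site: TAACTATGTCCTTTAAAAAGtttctccaca
MRPL20-AS1 5′ site, intron 1 of 2, chr1:1399686-1400157, plus strand: gtctcgaaagGCCTGTGGGTCAAGGGGGGC
MRPL20-AS1 3′ site: CATCGCTGATCCTCCCGCAGgcggtctcac

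U12-type introns are the rare kind removed by the minor spliceosome. Their 5′ site was looked for only where the first 8 intron bases could be read, in 328 of the 570 lncRNA gene introns. The first 8 intron bases, on the intron's own strand, were compared with ATATCCTT and GTATCCTT, allowing 1 mismatch. None of 328 lncRNA gene introns with those bases read matched, against 273 of 30160 other introns. With matches that rare among other introns, this cannot show that the classes differ, and the introns not read remain unknown. The last exon base before the intron was G in 84.9% of lncRNA gene introns and in 81.2% of the others. Among the 4 introns with unusual ends, that of GABPB1-AS1 had a WT retention level of 93.7% ± 1.64 (SD, n = 3), that of LINC00342 97.0% ± 1.63, that of ARRDC1-AS1 53.6% ± 15.7 and that of MRPL20-AS1 50.6% ± 6.29.

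The retention level is the share of retained reads among retained and spliced reads, each divided by the length that can yield them. In WT the median level was 87.0% over all 570 lncRNA gene introns, with quartiles of 24.7% and 98.7%, and 1.08% over the 110573 others. At least 50% was retained in 380 of the 570. Low numbers of spliced reads went with these levels: 203 lncRNA gene introns (35.6%) had a mean of at most 1 spliced read per WT library, against 4.79% of other introns, and 85 had none. Every listed intron has at least 20 junction reads of both kinds together in each library. An intron with few spliced reads was thus listed only through its retained reads. How far this raised the median was not tested. Median levels were 54.7% for LINC genes, 89.9% for -AS1, 91.2% for -AS2 and 93.1% for -DT.

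The level depended on where the ends of an intron lay. In 240 of the lncRNA gene introns (42.1%, against 4.47% of other introns) an end lay within an annotated exon of the opposite strand, and their median level was 97.3%, against 14.7% for 4941 other introns of that kind. With an end in an exon of the same strand only, the median was 83.8% for 209 introns and 6.02% for other introns. For the 121 introns with no end in an annotated exon it was 11.1%, against 0.478%. How far reads of those exons make up the retained reads was not tested.

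The difference between the classes varied with the reads at which they were compared. With a mean of under 1 spliced read per WT library the median level was 99.8% for 182 lncRNA gene introns and 99.9% for other introns. It was 93.1% for 121 and 94.8% between 1 and 5 spliced reads, 76.1% for 42 and 80.6% between 5 and 10, and 47.2% for 45 and 52.5% between 10 and 20. Under 20 spliced reads, where most lncRNA gene introns lay, their median was thus not the higher one. Between 20 and 50 mean spliced reads per WT library, 115 lncRNA gene introns had a median level of 12.9% and other introns 2.17%. Between 50 and 100 the medians were 2.27% for 48 introns and 0.946% for the others, and between 100 and 200 they were 4.53% for 15 introns and 0.662%. Among introns with no end in an exon and 20 to 50 spliced reads, the median was 9.06% for 47 lncRNA gene introns and 1.15% for the others. Spliced reads enter the level itself, so these bins fix part of it. Every listed intron has at least 20 junction reads in each library, so few spliced reads leave only a high level. With under 5 spliced reads, every listed intron of both classes was at least 50% retained. The like medians in those bins therefore cannot show whether the classes differ. By junction reads of both kinds, the medians were 76.4% for 257 lncRNA gene introns and 2.98% for others between 20 and 50 reads, and 99.5% for 29 and 0.705% between 200 and 500. These are descriptions of the WT libraries, with no test, since introns of 1 gene share reads: 306 of the 570 share an end with another.

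**Figure D1:**
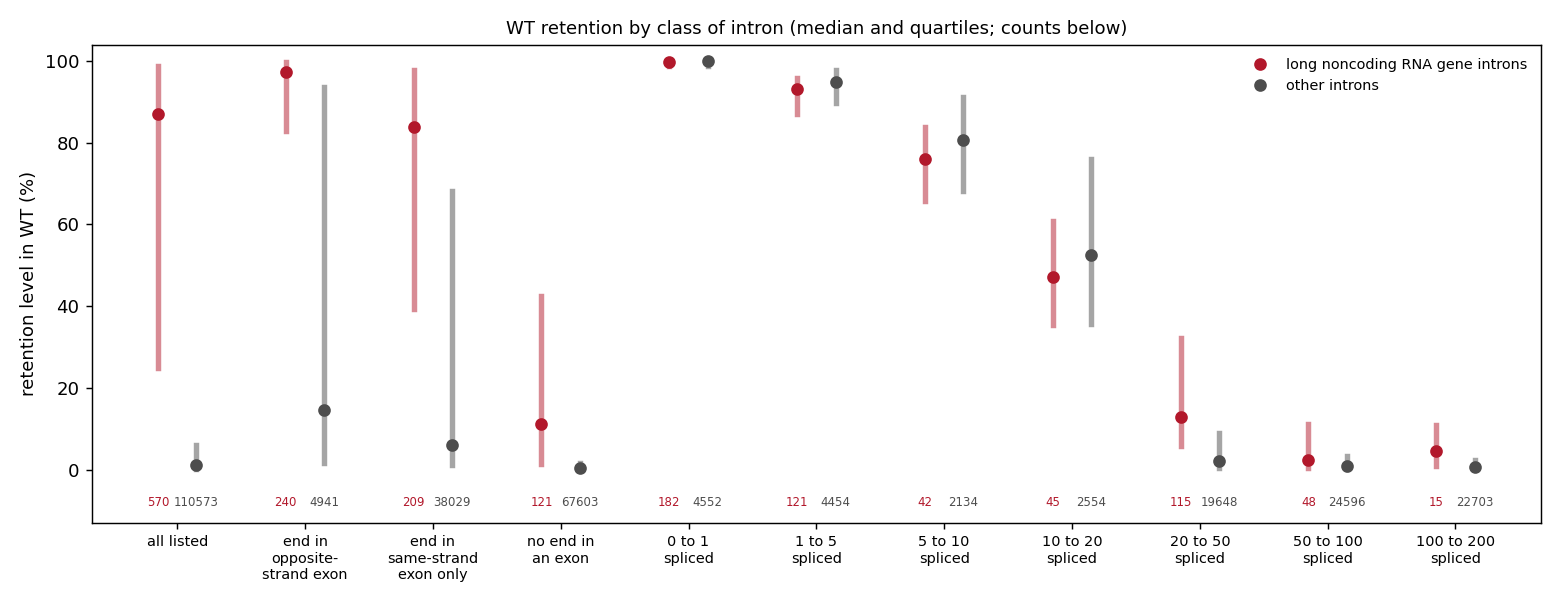
WT retention level in percent (y axis) for classes of intron (x axis), with lncRNA gene introns in red and other introns in grey. Points are medians, bars span the quartiles and the numbers give introns per class; the red median is the higher one over all listed (87.0% against 1.08%), in each class by position and from 20 spliced reads per library up, and the lower one in the 4 bins under 20 spliced reads (47.2% against 52.5% at 10 to 20).

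Introns of a single lncRNA gene differed widely. Of 35 genes with at least 5 listed introns, 29 had a range of WT levels above 50 percentage points, and the median range was 80.2 points. PAX8-AS1, antisense to the gene of the thyroid and kidney transcription factor PAX8, had the most listed introns (23), from 1.45% to 100% retained. In MCM3AP-AS1 all levels lay between 98.4% and 100%, and in ZFPM2-AS1 between 0.236% and 33.1%. The median SD between WT libraries was 5.35 points over 139 introns whose retained and spliced reads each averaged at least 10 in a comparison, which are the ones tested below.

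Introns tested in all 4 comparisons were then put in order of WT level, with 1 intron per gene. At the low end stood LINC01578, also called CHASERR, which lies beside the chromatin remodeller gene CHD2. Its intron 4 of 4 (chr15:92892073-92897723) was retained at 5.01%, 4.17% and 3.36% in the WT libraries. LINC02210 (5.69% ± 1.48), EPB41L4A-AS1 (7.69% ± 1.77), LINC00839 (10.0% ± 2.28) and TMEM161B-AS1 (10.9% ± 2.37) followed, and no neighbours in this order differed by more than their summed SD. At the high end stood intron 2 of 4 of PTOV1-AS2 (printed above), with both ends in exons of PTOV1, at 92.2%, 93.5% and 90.5%. DGUOK-AS1 (89.7% ± 0.76) and NAPA-AS1 (88.9% ± 1.04) also had an end in an exon of the opposite gene, whereas FGD5-AS1 (84.7% ± 2.98) and MAPKAPK5-AS1 (83.1% ± 1.97) had an end in an exon of their own gene. None of these 10 introns passed the test below in any clone (adjusted p of at least 0.37).

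Retention was then compared between each clone and WT, asking whether introns of lncRNA genes changed with the loss of bktRNA1. Only 2 did by the test, both higher in KO-4. A quasi-binomial model was fitted to every intron with enough reads, and a change was called at a Benjamini-Hochberg adjusted p under 0.05 over all introns tested. KO-1 had 0 of 93 lncRNA gene introns called, where 1.47% of all introns tested were (1.29% higher and 0.175% lower). KO-2 had 0 of 125, beside 1.6% of all (1.3% higher, 0.304% lower), and KO-3 had 0 of 116, beside 0.713% (0.558% higher, 0.155% lower). KO-4 had 2 of 122, both higher, beside 1.97% (1.54% higher, 0.429% lower). At an unadjusted p under 0.05 by this model, KO-1 had 5 higher and 5 lower, KO-2 had 9 and 5, KO-3 had 6 and 7, and KO-4 had 7 and 3. Run on log2 odds, limma called no lncRNA gene intron in any clone. The FDR values of the authors' deposited table, from a test that is not named, were under 0.05 for 1 higher and 6 lower with KO-1, for 3 and 9 with KO-2, for 1 and 6 with KO-3, and for 6 and 4 with KO-4. They cover all listed lncRNA gene introns, 375, 502, 470 and 494 from KO-1 to KO-4. The shares of all introns under 0.05 by the unadjusted p or the deposited FDR were not computed, so no lean is read from those counts.

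The counts called at the adjusted p of the quasi-binomial model were close to what other introns gave. Among other introns within the same range of reads (the 10th to the 90th percentile of the lncRNA gene introns, for retained and for spliced reads), the shares called were 1.01%, 0.739%, 0.399% and 1.22%, from KO-1 to KO-4. The median change in log2 odds of retention was 0.04, -0.04, 0.02 and 0.15 for lncRNA gene introns, and 0.13, 0.10, 0.02 and 0.17 for all introns tested. The median SE of a single lncRNA gene intron was 0.46 to 0.48 in log2 odds, so changes of that size were not detectable at this depth. The remaining lncRNA gene introns had too few retained or too few spliced reads to be tested.

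VPS9D1-AS1, antisense to VPS9D1, a gene for a protein with a VPS9 domain, had the clearest change. Its first intron is 466 bases long, and its 3′ end, shown above, lies in an exon of VPS9D1. The level was 17.6%, 18.3% and 16.4% in WT, and 41.3%, 35.3% and 30.1% in KO-4, with no overlap. In KO-2 it was 31.3%, 21.3% and 30.9%, also without overlap, whereas KO-1 (17.5% ± 2.41) and KO-3 (18.0% ± 1.92) overlapped WT. The change in log2 odds was 1.37 ± 0.26 (SE, adjusted p = 0.00032) in KO-4 and 0.89 ± 0.27 (adjusted p = 0.072) in KO-2, where it passed without the second KO-2 library (0.049), with no filter on reads (0.036) or with at least 50 junction reads (0.040). Leaving out any 1 library of KO-4 or WT kept the call in KO-4 in 6 of 6 fits, with adjusted p from 0.00023 to 0.017, and it ended when limma was run on log2 odds (adjusted p = 0.23).

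Counts of both kinds moved at that intron. Retained reads were 53, 59 and 56 in WT and 97, 96 and 81 in KO-4, while spliced reads were 124, 132 and 143 in WT and 69, 88 and 94 in KO-4. Over the whole gene, scaled spliced reads of VPS9D1-AS1 fell by 0.66 ± 0.12 (SE) on the log2 scale in KO-4 (adjusted p = 0.00024). Those of VPS9D1, on the other strand, rose by 0.71 in KO-4 (adjusted p = 0.00046) and by 0.39 in KO-2 (adjusted p = 0.040). The part of VPS9D1 reads in the retained reads was not tested.

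LINC01089 was the other intron called. Its intron 6 of 6, 464 bases long, has both ends within exons of other transcripts of its own gene. WT libraries had 51.0%, 50% and 63.9%, KO-4 had 86.3%, 75% and 84.0%, KO-1 had 76.9%, 77.4% and 72.7%, KO-2 had 77.1%, 73.5% and 82.6%, and KO-3 had 71.0%, 67.1% and 68.3%. All 12 clone libraries thus lay above all 3 WT libraries. The change in log2 odds was 1.85 ± 0.56 (SE, adjusted p = 0.044) in KO-4, beside 1.40 ± 0.59 (0.30), 1.56 ± 0.54 (0.13) and 0.92 ± 0.46 (0.61) in the clones KO-1 to KO-3. The call in KO-4 remained without the third WT library (adjusted p = 0.0095) and was lost without the first or second WT library (0.21 and 0.12) or any KO-4 library (0.085 to 0.21). It was also lost with limma on log2 odds (0.18) and after centring on the median intron (0.14). In KO-2 the intron was called without the third WT library (0.045). The 4 comparisons share the WT libraries, in which spliced reads were 24, 19 and 13. KO-4 had 5, 12 and 6, an average under 10, so the intron passed the read filter in KO-4 through WT.

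Other introns nearest to a call had smaller or less even differences. Intron 3 of 4 of LINC01270 (chr20:50312015-50312351) was retained at 28.9% ± 5.01 in WT and at 42.9%, 46.6%, 48.6% and 46.8% on average in KO-1 to KO-4 (adjusted p from 0.30 to 0.54). In GAS6-AS1 (chr13:113815692-113833491), antisense to the gene of the growth factor GAS6, the first intron was retained at 34.4%, 34.1% and 33.3% in WT and at 20.6%, 11.9% and 12.5% in KO-1. That is a change of -1.54 ± 0.53 (SE) in log2 odds (adjusted p = 0.15), without overlap between the groups. OTUD6B-AS1 had its largest value in KO-3 (1.05 ± 0.35, adjusted p = 0.22, and 0.043 without the third KO-3 library) and THAP9-AS1 in KO-3 (0.59 ± 0.25, adjusted p = 0.44). TRIM52-AS1, LINC02331, NUTM2A-AS1, NR2F1-AS1, MAP3K14-AS1 and MAFG-DT, tested in fewer clones, had adjusted p of at least 0.31.

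**Figure D2:**
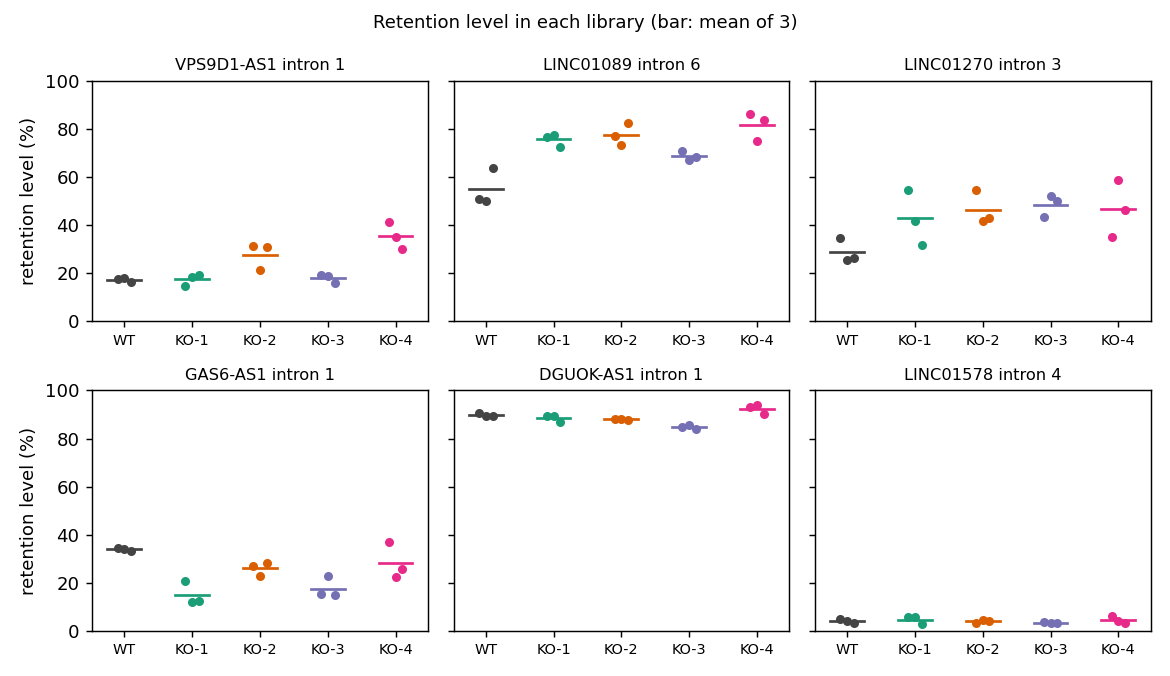
Retention level in percent (y axis) in each of the 15 libraries, by group (x axis), for 6 introns, with bars at the mean of 3 libraries. LINC01089 is higher in every clone library than in WT, VPS9D1-AS1 in KO-2 and KO-4, and LINC01578 stays below 7% throughout.

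The clones also differed among themselves, tested in 1 model over their 12 libraries without WT. Of 101 lncRNA gene introns tested, 9 differed at an adjusted p under 0.05, beside 6.41% of all introns. An end within an opposite-strand exon was found for 8 of the 9 (88.9%) and for 31 of the 101 (30.7%). The 9 are not independent: PXN-AS1 gave introns of 995 and 2440 bases that share an end, and SLC9A3-AS1 introns of 2016 and 680 bases. The share with such an end among all introns called was not computed. VPS9D1-AS1 led (adjusted p = 1.2e-05). In the PXN-AS1 intron of 2440 bases, with an end in an exon of the focal adhesion gene PXN, KO-1 had a level of 83.4% ± 0.79 (SD), KO-2 of 83.6% ± 4.58, KO-3 of 77.4% ± 2.40 and KO-4 of 87.7% ± 2.05, beside 81.0% ± 0.74 in WT. For PAX8-AS1 the 4 clones had 20.7% ± 6.08, 30.8% ± 10.5, 16.6% ± 3.48 and 43.2% ± 10.2, beside 33.0% ± 4.50 in WT.

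THAP9-AS1, the only one of the 9 with no end in an opposite-strand exon, was retained at 80.0% ± 8.04 in KO-1 and 53.6% ± 1.45 in KO-4. SLC9A3-AS1 is antisense to the gut sodium-proton exchanger gene SLC9A3. Its intron of 2016 bases had 56.5% ± 5.03 in KO-2 and 78.2% ± 1.41 in KO-4, beside 80.6% ± 14.5 in WT. DGUOK-AS1, antisense to the mitochondrial deoxyguanosine kinase gene, had 84.8% ± 0.66 in KO-3 and 92.5% ± 1.86 in KO-4, beside 89.7% ± 0.76 in WT. Leaving out the library listed first, second or last in each clone gave between 2 and 6 introns called, 2 without those listed first and 3 without those listed second.

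Spliced reads summed per gene were used as a measure of spliced lncRNA. They were divided by a size factor per library (scaled spliced reads) and tested with limma over all genes with a mean of at least 10 reads. Of the 135 lncRNA genes listed in all tables, 85 passed this filter in at least 1 comparison and 77 in all 4. KO-1 had 10 of 79 higher and 3 lower, where 10.8% of all genes were higher and 9.68% lower (20.4% either way). KO-2 had 12 of 83 higher and 2 lower, beside 21.3% and 19.7% (40.9%). KO-3 had 13 of 80 higher and 2 lower, beside 11.3% and 11.9% (23.3%). KO-4 had 17 of 81 higher and 12 lower, beside 24% and 23.3% (47.2%).

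By the median change, lncRNA genes leaned to higher levels in KO-1 to KO-3. Their median log2 fold change was 0.16, 0.13 and 0.14 there and 0.03 in KO-4, while that of all genes was 0.00 for each. At similar reads the medians were 0.16, 0.14, 0.14 and -0.01 from KO-1 to KO-4, beside 0.05, 0.02, -0.05 and 0.01 for other genes. The comparisons share the WT libraries, so the like medians of KO-1 to KO-3 are not independent. The shares called did not all lean that way. Among genes with similar reads, KO-1 had 12.7% of lncRNA genes and 7.40% of other genes called higher, KO-2 had 15.4% and 13.9%, KO-3 had 17.2% and 4.61%, and KO-4 had 20% and 14.5%. Called lower, in the same order, were 4.76% and 3.78%, 1.54% and 8.46%, 3.13% and 7.52%, and 16.9% and 13.8%. By kind, LINC genes gave 2, 3, 3 and 5 higher and 1, 1, 0 and 4 lower in KO-1 to KO-4, and antisense and divergent genes 8, 9, 10 and 12 higher and 2, 1, 2 and 8 lower.

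Of these calls, 4 rest on genes whose reads averaged under 10 in 1 of the groups, so that they entered the test through the group where they are higher: NOP14-AS1 in 3 clones and MZF1-AS1, called lower in KO-4. Single libraries moved several of these counts. Without the third KO-1 library 6 genes were higher in KO-1, and without the first or second WT or the second KO-1 library 1 was lower. In KO-2, 1 was lower without the first WT or second KO-2 library and 0 without the first KO-2 library. In KO-3, 7 were higher without its first library, 8 without its second or without the second or the third WT library, and 1 was lower in all 6 fits. In KO-4, 11 were higher without the second WT or the second or the third KO-4 library, while 4 were lower without the first WT library and 6 without the second WT or the first or second KO-4 library. With a minimum mean of 50 reads, 6 were higher in KO-1 and 6 lower in KO-4.

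**Figure D3:**
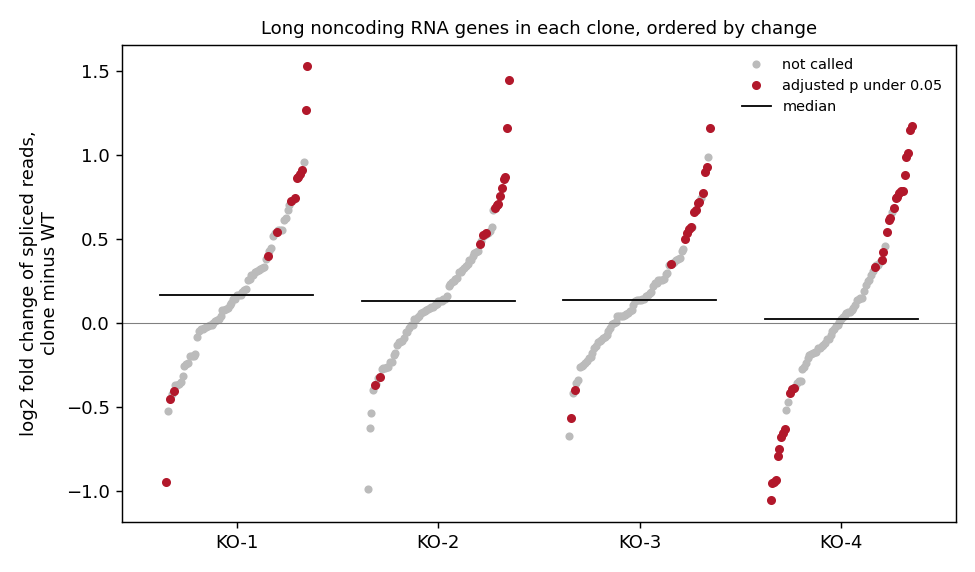
Log2 fold change of scaled spliced reads (y axis, clone minus WT) of each tested lncRNA gene, ordered by size within each clone (x axis). Red points passed at an adjusted p under 0.05, and black lines mark medians of 0.16, 0.13, 0.14 and 0.03. KO-4 has the most genes called lower (12 of 81, beside 23.3% of all genes).

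Only LINC02331 rose in all 4 clones, in the sense of passing the test in each. It is an intergenic RNA with an intron of 63393 bases (chr14:53686609-53750001) not found in the annotation, and its role is not described in the sources used here. Scaled spliced reads were 159, 139 and 161 in WT, 325, 255 and 271 in KO-1, 277, 264 and 287 in KO-2, 423, 281 and 336 in KO-3, and 258, 329 and 345 in KO-4. No clone library overlapped WT. The log2 fold changes were 0.89 ± 0.13 (SE, adjusted p = 6.2e-05), 0.85 ± 0.11 (2.0e-05), 1.16 ± 0.14 (0.00010) and 1.01 ± 0.13 (6.6e-06), and the calls held in all fits without a library. That the clones share the WT libraries makes these 4 comparisons dependent. Of the 85 genes tested in any comparison, 2 others passed in 3 clones, 16 in 2, 29 in 1 and 37 in none. Among all genes tested, 20.4%, 40.9%, 23.3% and 47.2% were called either way in KO-1 to KO-4. How many of all genes passed in several clones was not counted.

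NOP14-AS1, antisense to NOP14, which serves the assembly of the small ribosomal subunit, passed in 3 clones. WT averaged 8.0 reads per library, under the minimum of 10, so the gene entered the test through the clones, where it is higher. Its scaled spliced reads were few: 9.61, 8.94 and 2.86 in WT, 18.5, 15.1 and 24.1 in KO-1, 16.7, 21.4 and 16.6 in KO-2, and 15.3, 14.7 and 13.9 in KO-4. These clone libraries lay above all of WT, and in KO-3 (13.8, 7.36 and 21.4) 1 did not. The log2 fold changes from KO-1 to KO-4 were 1.53 ± 0.41 (SE, adjusted p = 0.011), 1.45 ± 0.42 (0.011), 0.99 ± 0.49 (0.16) and 1.15 ± 0.42 (0.033). The call was lost in KO-1 without the third WT library (0.056), in KO-2 without the second KO-2 library (0.052), and in KO-4 without the third WT library (0.16) or any KO-4 library (0.069 to 0.081). NOP14 itself changed by -0.20, -0.34, -0.26 and -0.54, each with an adjusted p of at most 0.042.

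SLC9A3-AS1 passed in KO-1, KO-2 and KO-4. WT libraries had 119, 106 and 180 scaled spliced reads, KO-1 had 239, 237 and 244, KO-2 had 223, 240 and 203, and KO-4 had 179, 221 and 176. KO-1 and KO-2 did not overlap WT, whereas 2 KO-4 libraries lay below the highest WT library. The log2 fold changes were 0.87 ± 0.16 (SE, adjusted p = 0.00072), 0.75 ± 0.17 (0.0017) and 0.54 ± 0.17 (0.016), with 0.36 ± 0.21 (0.25) in KO-3. The call in KO-4 was lost without the first or second WT library or the second KO-4 library (0.054, 0.10 and 0.085). SLC9A3 was not listed.

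**Figure D4:**
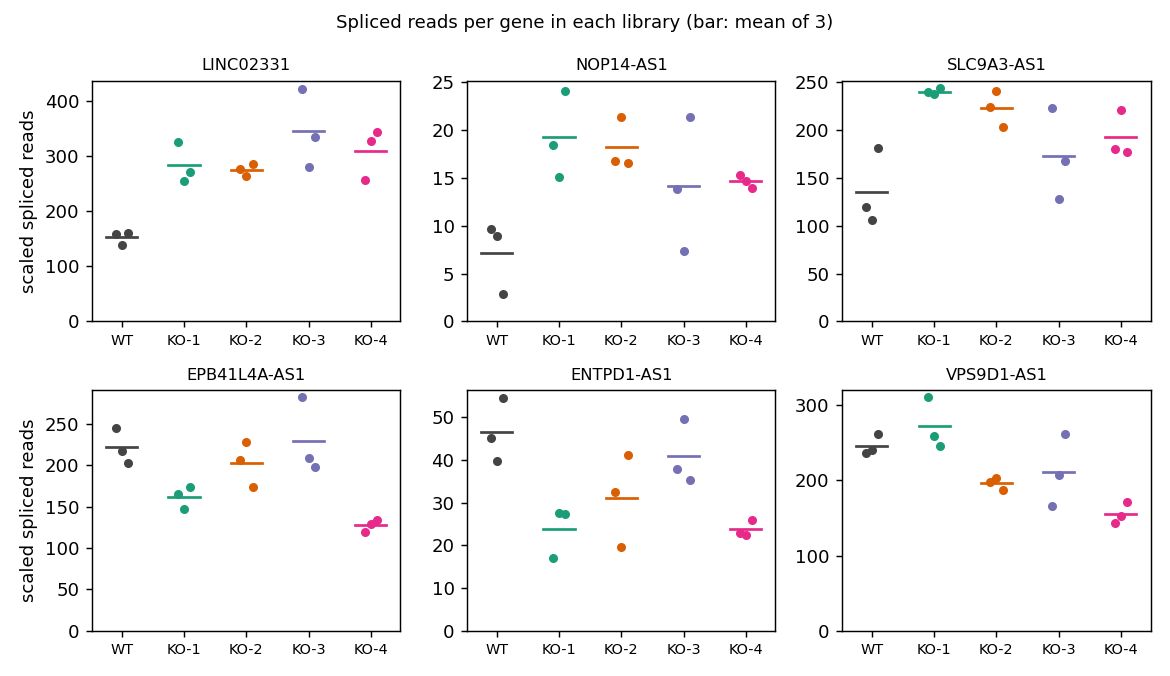
Scaled spliced reads per gene (y axis, each panel from 0) in each of the 15 libraries, by group (x axis), with bars at the mean of 3, for 6 lncRNA genes. LINC02331 is above WT in every clone library, and EPB41L4A-AS1, ENTPD1-AS1 and VPS9D1-AS1 in KO-4 lie below all WT libraries.

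Genes that rose in KO-4 included NR2F1-AS1, which starts beside the gene of the nuclear receptor NR2F1. It stood at 236, 205 and 217 scaled spliced reads in WT and 346, 359 and 395 in KO-4, a log2 fold change of 0.74 ± 0.11 (SE, adjusted p = 2.2e-05), and NR2F1 rose by 0.49 there (adjusted p = 2.1e-05). LINC00511 had 54.8, 79.7 and 67.8 in WT and 134, 165 and 105 in KO-4 (0.99 ± 0.19, adjusted p = 0.00035), without overlap. LINC00963 and PTOV1-AS2 rose in KO-4 by 0.68 and 0.75 (adjusted p = 0.0016 and 0.0053). All of these calls held in 6 of 6 fits without a library.

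Falls were most frequent in KO-4 (12 of 81 lncRNA genes), as they were among all genes. There 23.3% of all genes fell, against 9.68%, 19.7% and 11.9% in KO-1 to KO-3. EPB41L4A-AS1 had 245, 217 and 203 scaled spliced reads in WT and 120, 128 and 134 in KO-4, a log2 fold change of -0.79 ± 0.13 (SE, adjusted p = 6.8e-05). TMEM161B-AS1 had 178, 146 and 158 in WT and 99.5, 91.4 and 93.7 in KO-4 (-0.75 ± 0.14, adjusted p = 0.00028). ENTPD1-AS1, antisense to the gene of the ectonucleotidase CD39, had 45.2, 39.8 and 54.4 in WT and 23.0, 22.4 and 26.0 in KO-4 (-0.94 ± 0.22, adjusted p = 0.0024). None of the 3 overlapped WT, and each call held in 6 of 6 fits. In KO-1, EPB41L4A-AS1 (-0.45, adjusted p = 0.021) and ENTPD1-AS1 (-0.95, 0.011) also fell. The first of these calls was lost without the first or second WT library (0.10 and 0.052) or the second KO-1 library (0.094), and the other without the third WT (0.051) or first KO-1 library (0.055).

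Among 85 well described lncRNA genes, 37 were listed and 20 to 22 tested. From KO-1 to KO-4, 5, 4, 5 and 4 were higher and 3, 0, 0 and 2 lower, where 10.8%, 21.3%, 11.3% and 24% of all genes were higher and 9.68%, 19.7%, 11.9% and 23.3% lower. OIP5-AS1, known as cyrano and for its site for the microRNA miR-7, rose in KO-1 by 0.40 ± 0.13 (SE, adjusted p = 0.032), a call that remained only without the first KO-1 library (0.028) and was otherwise lost without a WT library (0.054 to 0.092) or the second or the third KO-1 library (0.16 and 0.056). GAS6-AS1 rose in KO-1 by 0.91 ± 0.19 (0.0014) and in KO-2 by 0.68 ± 0.19 (0.0077), in all 6 fits for each. LINC00467, the sole gene tested (of 8) on a list of lncRNA genes reported to encode small proteins, rose in KO-3 by 0.50 ± 0.14 (0.019), except without the third WT (0.073) or first KO-3 library (0.051). TMEM147-AS1 rose in KO-3 by 0.72 ± 0.18 (0.011), in all 6 fits.

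The 61 lncRNA genes with other kinds of name are background to these. Of 32 tested, 8, 11, 11 and 2 were higher and 1, 1, 0 and 15 lower in KO-1 to KO-4, to be read against the same shares of all genes (10.8%, 21.3%, 11.3% and 24% higher, and 9.68%, 19.7%, 11.9% and 23.3% lower). GAS5, a host of small nucleolar RNAs, changed by 0.35, 0.33 and 0.38 in the clones KO-1 to KO-3 and by -0.26 in KO-4. SNHG19, also such a host, changed by 0.90, 0.65 and 0.70 and by -0.59. All 8 passed the test. Of 12 minor spliceosome genes, 3, 1, 3 and 4 were higher and 0, 1, 1 and 1 lower, beside 20.4%, 40.9%, 23.3% and 47.2% of all genes called either way.

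Antisense and divergent genes were set beside the gene they are named for. Of 161 such partners, 113 or 114 were tested, with 11, 25, 11 and 29 higher and 15, 25, 20 and 25 lower in KO-1 to KO-4. Among all genes 10.8%, 21.3%, 11.3% and 24% were higher and 9.68%, 19.7%, 11.9% and 23.3% lower. Both genes were tested in 38 or 39 pairs per clone. The lncRNA gene passed in 5, 8, 9 and 14 of these pairs and the partner in 10, 19, 13 and 22. Both passed in 1, 5, 1 and 10 pairs, in the same direction in 0, 3, 0 and 7. Whether joint calls were more frequent than calls of each gene alone would give was not tested. VPS9D1-AS1 with VPS9D1 and NOP14-AS1 with NOP14 went opposite ways in KO-4, and NR2F1-AS1 with NR2F1 the same way. NOP14-AS1 averaged 8.0 reads in WT and entered its tests through the clones, where it is higher. Its call in KO-4 held in 2 of 6 fits without a library. The 7 pairs include PAX8-AS1 (0.33, adjusted p = 0.041) with PAX8. PAX8 was tested in KO-4 only, which it entered through the KO-4 libraries: it stood at 1.72 ± 1.32 (SD) scaled spliced reads in WT and 18.9 ± 5.14 in KO-4, so its fitted fold rests on very few WT reads.

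Retained reads of an intron with an end in an opposite-strand exon moved with the gene that owns that exon. For introns where both genes were tested, the correlation across introns between the log2 change of retained reads and that of the covering gene's spliced reads was 0.70, 0.63, 0.59 and 0.65 in KO-1 to KO-4 (Pearson's r, n = 36, 43, 38 and 46 introns over 17, 18, 16 and 19 covering genes). With the spliced reads of the intron's own gene it was 0.02, -0.45, -0.06 and 0.14. Over all introns where the gene in question was tested, r with the covering gene was 0.50, 0.69, 0.49 and 0.57 (n = 98, 120, 111 and 126), and r with the own gene 0.00, -0.22, 0.18 and 0.32 (n = 63, 88, 76 and 81). In KO-4, 7 introns lie over PAX8, whose change rests on very few WT reads, and without them r was 0.81 for the covering gene and 0.08 for the own gene (n = 39). The points share WT libraries, size factors and genes, so r is a description with no test. The median SE of a log2 fold change was 0.19 to 0.21 for lncRNA genes and 0.08 to 0.09 for all genes. Noise of that kind can lower r with the own gene, and how far it did was not tested.

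Introns without such an end moved with their own gene. With an end in an exon of the same strand only, r with the own gene was 0.52, 0.45, 0.53 and 0.65 (n = 97, 115, 106 and 108), and with no end in an exon it was 0.71, 0.51, 0.50 and 0.66 (n = 20, 20, 18 and 18). Whether reads of the opposite strand were counted for these introns was not tested.

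**Figure D5:**
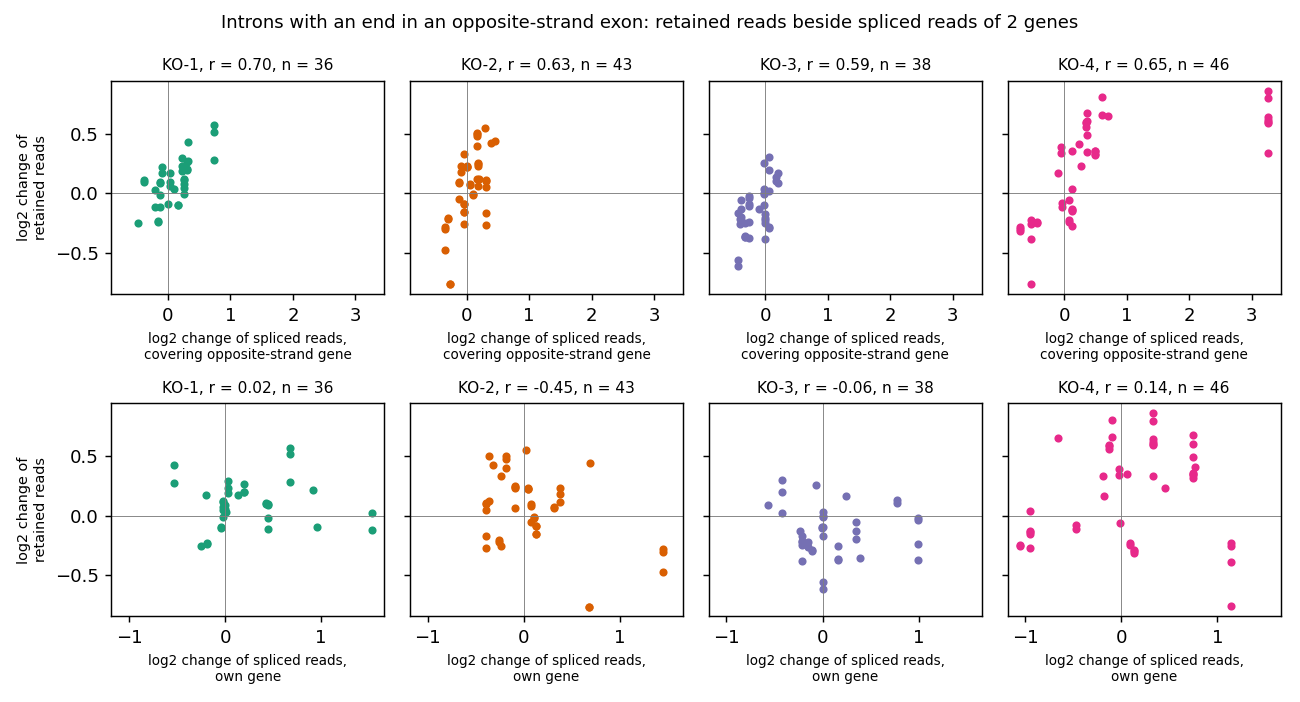
Log2 change of retained reads (y axis, clone minus WT) of introns with an end in an opposite-strand exon, against the log2 change of spliced reads (x axis) of the covering gene (top row) and of the intron's own gene (bottom row), 1 column per clone and 1 point per intron. The points rise together in the top row (r from 0.59 to 0.70) and not in the bottom row (r from -0.45 to 0.14); the points at 3.26 in KO-4 lie over PAX8, which was near 0 in WT.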

How the data were processed

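PolyA RNA of HCT116 cells was sequenced in 15 libraries with a directional kit. The submitters' processing notes name cutadapt 2.0, STAR 2.7.1a and hg38. What counted the junction reads is not given in the sources used here. For each clone the authors deposited a table whose cells list 3 libraries. It holds, per the file headers, counts of retained and spliced junction reads, form lengths and inclusion levels (fractions of retained reads). The WT lists are identical in all tables. The deposited p-values and FDR values come from a test that is not named. Every listed intron has at least 20 junction reads in each library, so the authors had filtered the introns.

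Retention was recomputed from counts and lengths. Introns whose retained and spliced reads each averaged at least 10 entered a quasi-binomial model. Its dispersion was moderated with squeezeVar of limma 3.58.1 (in R 4.3.3) and kept at 1 or above, before an F test and Benjamini-Hochberg adjustment over all introns. Spliced reads per gene were summed over introns listed in all tables, divided by a median-ratio size factor and tested as log2(reads + 0.5) with limma (eBayes with a trend), two-sided. The plan named a quasi-likelihood count test for these sums. That test was not run, and limma was used instead. Genes below the filters were left out. The tests were also run on simulated data, with changes planted in introns and genes drawn from all tested. The spread was set in advance and lncRNA genes were not looked at alone. Those runs therefore do not show how the tests perform on lncRNA genes. The SE and p-values cover the spread between 3 libraries per group.

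Exons, strands and gene types came from GENCODE v29 (99.6% of introns found, 496 of 570 here). The members and lists were chosen with earlier results of these data known. Named introns and genes were, with 1 intron per gene: the 12 genes nearest to or past the threshold in most clones, the 3 largest rises and falls per clone, genes whose spliced reads passed the same way in all 4 clones (in 3 where fewer than 5 did), the 5 highest and 5 lowest WT levels among introns tested in all clones, a list of well described lncRNA genes, and partner genes. The introns with GC-AG or AT-AC ends, the introns that differed among clones, the genes cited for ranges of WT levels, and GAS5, SNHG19, RPARP-AS1, LINC00513 and MRPL20-AS1 were named after their values were seen. Alternatives were other read minimums, limma on log2 odds, centring on the median change, the authors' deposited values, another limma weighting (voom, added after the data were seen) and leaving out each library.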

Additional observations from a re-analysis of the deposited data

Results flagged for a closer look

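Retention of 9 introns differed among the 4 clones in the quasi-binomial model over their 12 libraries, beside 6.41% of all introns tested. The adjusted p was 1.15e-05 for VPS9D1-AS1 (466 bases), 0.00235 for PXN-AS1 (995 bases), 0.00409 for PAX8-AS1 (2519 bases) and 0.00657 for the longer PXN-AS1 intron (2440 bases). It was 0.0124 for THAP9-AS1 (5229 bases), 0.0135 and 0.0157 for SLC9A3-AS1 (2016 and 680 bases), 0.0260 for DGUOK-AS1 and 0.0499 for AGAP2-AS1.

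Spliced reads were then searched for opposite shifts, only among lncRNA genes called in at least 1 clone. In 4 of these genes, all libraries of 1 clone lay above every WT library and all libraries of another below. The same count over all genes was not made, and these differences between clones were not tested. DGUOK-AS1 had log2 fold changes of 0.32 (KO-2), 0.78 (KO-3) and -0.47 (KO-4), with adjusted p of 0.26, 0.017 and 0.12 by limma. For LINC00513 the same clones had 0.49, 0.71 and -0.34 (adjusted p = 0.15, 0.036 and 0.27). For MRPL20-AS1 they had 0.25, 0.26 and -0.40 (adjusted p = 0.12, 0.14 and 0.039). None of these 3 genes thus passed in both directions. RPARP-AS1 had 0.68 in KO-3 (adjusted p = 0.0093 with limma) and -0.42 in KO-4 (adjusted p = 0.038, and 0.057 to 0.17 without any KO-4 library or the first or second WT library), and was the only lncRNA gene called in both directions.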

How the results depend on the processing

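Beside the 2 introns called higher in KO-4, limma on log2 odds gave 0 and centring on the median change 1. By the authors' deposited FDR, 1 intron was higher and 6 lower in KO-1, 3 and 9 in KO-2, 1 and 6 in KO-3, and 6 and 4 in KO-4. These are out of 375, 502, 470 and 494 listed lncRNA gene introns, and the share over all introns was not computed. Without a filter on reads 1 was higher and 1 lower in KO-2. With at least 50 junction reads 1 was higher in KO-2 and 1 lower in KO-3. Leaving out 1 library gave 0 to 1 higher and 0 to 1 lower in KO-1 and in KO-2, 0 to 1 higher and 0 lower in KO-3, and 1 to 4 higher and 0 lower in KO-4, with 4 without the third WT library. Genes higher by spliced reads ranged from 6 to 11 in KO-1, 9 to 12 in KO-2, 7 to 9 in KO-3 and 11 to 16 in KO-4, and genes lower from 1 to 2, 0 to 2, 1 to 1 and 4 to 12. With at least 50 reads, 6 genes were higher in KO-1 and 6 lower in KO-4. Introns differing among clones ranged from 2 to 6 beside 9. The median WT level was 34.0% over the 139 introns tested, 87.0% over all listed and 14.7% over those with no annotated exon inside. Fewer samples or fewer genes tested are part of these alternatives by construction. For the others the cause was not tested.

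Signs turned only for values near 0. For VPS9D1-AS1 in KO-1 (-0.01 log2 odds) limma gave 0.00386, and leaving out 1 library gave -0.0887 to 0.144. In KO-3 (0.06) leaving out 1 library gave -0.00391 to 0.165. For OTUD6B-AS1 in KO-4 (0.10) centring gave -0.0691, and leaving out 1 library gave -0.152 to 0.262. Over the named introns 316 alternative values kept direction and side of the threshold, 8 lost the call, 5 gained it and 8 turned. Over the named genes 292 kept both and 72 lost the call. No paired analysis was possible because the lists carry no replicate numbers and nothing ties their order to the labelled replicates. The count models planned for spliced reads were not run. Read depth limits single introns: the median SE was 0.46 to 0.48 in log2 odds.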
